A study of Mus musculus with 10 samples.

Results

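In a study of 10 RNA-seq libraries of mouse colon, the 8 taken after azoxymethane (AOM) and dextran sulfate sodium (DSS) fall apart on the level of 1 gene, Hoxd13. The libraries were chosen by their Hoxd13 level in FPKM (fragments mapped to a transcript, scaled to its length and to all mapped fragments), summed over the transcripts of the gene. The 4 Hoxd13-high libraries, with at least 50 FPKM, were ASA replicate 0 at 75.7, CUR replicate 1 at 71.6, ASA+CUR replicate 0 at 87.7 and ASA+CUR replicate 1 at 65.2 FPKM. The 4 Hoxd13-low libraries were Model replicate 0 at 8.35, Model replicate 1 at 0.0850, ASA replicate 1 at 0.0566 and CUR replicate 0 at 0.0323 FPKM. The 2 Control libraries, at 3.52 and 1.86 FPKM, belong to neither class. No library lay between 8.35 and 65.2 FPKM. Because a measured value chose the classes, every difference between them is a description with no test, and values below are listed in the library order just given.

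All mice were C57BL/6. The Control group received saline, with 6 weeks given as its age at injection, and ate AIN-93M. Model mice were given AOM, a colon carcinogen, at 10 mg/kg at 6 weeks of age, then DSS, a polymer that injures the colon lining, at 1.2% in the water for 7 days, on the same diet. The ASA (aspirin), CUR (curcumin) and ASA+CUR groups had the same AOM and DSS with 0.02% ASA, 2% CUR, or 0.01% ASA with 1% CUR in the AIN-93M diet. Each group had 2 libraries, numbered 0 and 1, and the labels do not say that they came from separate mice. What the p-values measure is then no more than how far these libraries differ, which could be technical. The labels name the Control tissue colon and the AOM/DSS tissue tumor, whereas the protocol describes the portion frozen after the proximal end and palpable tumors were taken away, and none gives the position of a piece along the colon. Both Model libraries were Hoxd13-low and both ASA+CUR libraries Hoxd13-high, so diet and class cannot be told apart between those groups. ASA and CUR each had 1 library of either class.

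Hox genes encode transcription factors whose order along the chromosome follows the order of their expression along the body axis, and those of paralog group 13 mark the hindmost gut. Along the adult mouse colon, epithelium and stroma differ by position: the distal part absorbs sodium through aldosterone-regulated channels and pumps, while the proximal part carries more of some secreted antimicrobial and lipid-handling proteins. Cdx2, a homeobox transcription factor, sets and keeps intestinal identity of the epithelium.

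Summed FPKM lay between 515959 and 720895 per library, and 12781 to 13283 genes reached 1 FPKM. Total read numbers are unknown, since FPKM removes them. Ribosomal protein genes made up 14.0% to 15.9% of FPKM in the Hoxd13-high and 14.2% to 18.2% in the Hoxd13-low libraries, and 79 of 81 were lower on average in the Hoxd13-high class by a list median of 0.30 on the log2 scale. The median difference, Hoxd13-high minus Hoxd13-low, was 0.048 between the ASA libraries and -0.528 between the CUR libraries. CUR replicate 0 had the highest mean level of these genes, 10.16 on log2(FPKM + 1). In bulk tissue, fewer cells of a type and less RNA per cell cannot be told apart.

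Other genes linked to position are described next, and none of them tests what the classes are. Hoxa11 and Cdx2 were named as markers with Hoxd13 when this comparison was set up, so their separation is not independent of that choice. The distal and proximal lists were written with earlier results of these data known. Hoxb13, another group 13 gene, had 197, 296, 180.3 and 183 FPKM in the Hoxd13-high libraries against 94.7, 27.9, 15.0 and 19.5 in the Hoxd13-low libraries. Hoxa11, a more anterior Hox gene, had 3.18, 3.23, 3.21 and 3.64 FPKM against 12.1, 14.0, 15.3 and 19.6. Neither overlapped between the classes. The Control libraries had high Hoxb13, at 186 and 269.7 FPKM, with low Hoxd13, so they matched neither pattern. Of 24 Hox genes tested, 5 were higher and 1 lower by the rule below, and other genes are described from here on.

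Of 10 genes listed as distal, 8 were matched and all 8 passed the filter on low values, while Prac1 and Ly6g were not analysed here. Of the 8, 7 had higher means in the Hoxd13-high class (median difference 1.15 on log2(FPKM + 1), against -0.01 over all genes). The classes overlapped in the mean level of this list, at 4.066 to 5.428 against 2.982 to 4.103. Its summed level was 280.94 to 779.27 FPKM against 344.16 to 572.72, lowest in ASA+CUR replicate 1. Control was above both classes, with mean levels of 5.651 and 6.07 and sums of 1282.9 and 1812.6 FPKM. Atp12a, Pyy and Scnn1g separated fully with a difference of at least 1. Tgm3, a crosslinking enzyme, and Eno3, an enolase, had differences of 1.22 and 1.08 with overlapping classes, and Scnn1b, a subunit of the epithelial sodium channel, separated at 0.84. Insl5, a hormone of colonic endocrine cells, had a difference of 0.73 and Prdx6, a peroxiredoxin, of -0.24, both with overlap. Of 6 genes listed as proximal, all but Osr2 passed the filter, and 4 of the 5 had lower means in the Hoxd13-high class (median -0.41). Ang4 separated with a difference of at least 1. Fut2, a fucosyltransferase, Aqp4, a water channel, and B4galt1, a galactosyltransferase, had differences of -0.41, -0.15 and 0.19. Aqp4 turned to 0.22 without Model replicate 0 and 0.05 without ASA+CUR replicate 1, and Prdx6 to 0.006 without ASA+CUR replicate 1. Among transcription factors, Cdx2 separated while Cdx1 differed by 0.04 with overlap and turned sign without ASA replicate 0, ASA replicate 1 or CUR replicate 1. Part of the listed position genes thus follow the Hoxd13 split and part do not, and the classes are called Hoxd13-high and Hoxd13-low below.

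A gene was counted as higher or lower where the 4 and 4 libraries did not overlap and the means of log2(FPKM + 1) differed by at least 1. Of 14061 genes tested, each reaching 1 FPKM in 2 libraries or more, 123 were higher (0.875%) and 149 lower (1.06%) in the Hoxd13-high class. Hox genes left out, these were 118 and 148 genes. The shares of 0.875% and 1.06% are the background for every count of list members in this report. Without CUR replicate 1, 244 genes were lower in place of 149. Krt5, a keratin of stratified epithelium, was above 10 FPKM in Model replicate 0 (10.3), ASA replicate 0 (94.5) and ASA+CUR replicate 0 (212). With these 3 libraries left out, an alternative chosen after the data were seen, 195 genes were higher and 270 lower. Among them were 108 of the 123 and 137 of the 149. A gene without overlap in the 4 and 4 libraries cannot overlap in fewer of them, so it drops out only where its difference falls below 1. This overlap of lists is thus largely fixed in advance and is no check of the counted genes.

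A protease and 3 protease inhibitors are described first, a grouping made after their values were seen. Klk15, a kallikrein-related serine protease (chromosome 7, 43929405 to 43940035, GRCm38), had 29.4, 13.4, 39.0 and 50.9 FPKM in the Hoxd13-high libraries and 1.99, 0, 0 and 0 in the Hoxd13-low libraries. Control replicate 1 was at 1.83 and Control replicate 0 was listed at 0, so Klk15 was above 2 FPKM in the Hoxd13-high libraries alone. Its difference of 4.55 was the largest of the counted genes other than Hoxd13. A value of 0 in such a table can be a failed estimate, so no fold is given against it. Wfdc2, a small secreted protein with protease inhibitor folds, had 287, 243, 216 and 175.5 FPKM against 78.7, 10.8, 5.34 and 6.19, a difference of 3.99. Model replicate 0 stood closest to the Hoxd13-high class, and both Control libraries, at 306 and 506 FPKM, were above every AOM/DSS library. Serpinb11, a member of the serpin family of protease inhibitors, had 8.92, 9.65, 15.8 and 15.3 FPKM against 1.36, 1.29, 1.20 and 2.15, and was listed at 0 in both Control libraries. Slpi, an inhibitor of leukocyte proteases, had 519, 169, 268 and 188 FPKM against 139.6, 164, 36.2 and 54.5, so its classes nearly met. The Control libraries had 12.4 and 7.51 FPKM of Slpi, below all others.

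Of the listed sodium and potassium transport genes, 3 were counted higher in the Hoxd13-high class. Atp12a, the non-gastric proton-potassium pump (chromosome 14, 56364669 to 56388551), had 89.0, 62.6, 55.0 and 13.6 FPKM against 10.9, 1.33, 0.897 and 6.12, a difference of 3.40. ASA+CUR replicate 1 and Model replicate 0 were the closest of the 2 classes, and the Control libraries lay inside the Hoxd13-high range at 48.9 and 82.6. Fxyd4, a regulator of the sodium-potassium pump, had 39.7, 14.4, 32.6 and 50.02 FPKM against 5.04, 0, 0.177 and 1.19, with 7.58 and 44.7 in Control. Scnn1g, the gamma subunit of the epithelial sodium channel, had 1.84, 3.99, 3.87 and 2.65 FPKM against 0.741, 0.562, 0.584 and 0.373, and 0.349 and 0.553 in Control. Of 17 sodium and potassium transport genes tested, these 3 were counted higher and none lower, 13 had higher means, and the median was 0.46. The Control libraries thus lay within or near the Hoxd13-high class for Atp12a but with the Hoxd13-low class for Scnn1g.

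Among regulators and hormones, Isl1, a LIM homeobox factor of endocrine and mesenchymal cells, had 18.9, 6.48, 16.9 and 8.28 FPKM against 1.68, 0.445, 0.0833 and 1.71. Pyy, a peptide hormone of colonic L cells, had 73.4, 76.3, 200.03 and 36.9 FPKM against 35.3, 20.8, 8.06 and 25.6, so ASA+CUR replicate 1 and Model replicate 0 almost met. Isl1 and Pyy were the 2 genes counted of 14 enteroendocrine genes tested, of which 10 had higher means (median 0.32). Gata5, a zinc-finger factor of endoderm, had 12.3, 5.66, 10.9 and 11.8 FPKM against 4.11, 3.15, 1.855 and 5.35. Shh, the hedgehog ligand that epithelium sends to mesenchyme, had 3.67, 1.89, 9.09 and 5.30 FPKM against 0.259, 0.472, 0.471 and 0.657. Shh and Sfrp2, a secreted Wnt inhibitor with a difference of 1.32, were counted of 22 Wnt, BMP and hedgehog signal genes, whose median was -0.16. Ttll6, a neighbour of the Hoxb cluster, was 1 of 9 Hox neighbours counted (difference 1.28).

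Surface and mucosal genes made up a further group. Msln, which mesothelium and regenerating epithelium carry, had 5.88, 10.2, 12.1 and 9.98 FPKM against 1.73, 2.29, 3.43 and 1.34. Msln belongs to the list of fetal-like epithelial genes, of which 12 were tested with a median of 0.01. Best2, an anion channel of goblet cells, had 5.46, 17.4, 6.75 and 4.03 FPKM against 3.28, 3.84, 0.872 and 1.24, and 10.4 and 18.3 in Control. B4galnt3, which adds N-acetylgalactosamine to glycans, had 17.3, 19.6, 16.9 and 11.5 FPKM against 5.15, 2.18, 1.45 and 1.95. The 10 highest also held Krt84 at a difference of 2.65, Hamp2 at 2.51 and Mettl7a3 at 2.75. Hamp2 and Mettl7a3 have near-identical copies (Hamp, Mettl7a2), and the split of reads between such copies is uncertain.

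Cdx2 led the named factors that were lower in the Hoxd13-high class. It lies on chromosome 5 from 147300900 to 147307249 and had 5.22, 11.4, 6.34 and 7.05 FPKM in the Hoxd13-high libraries against 64.1, 62.8, 61.1 and 126 in the Hoxd13-low libraries. The difference was -3.20, and it was -3.32 between the ASA libraries and -3.35 between the CUR libraries. The Control libraries, at 139 and 124 FPKM, lay with or above the Hoxd13-low class. Isx, an intestinal homeobox factor, was also counted lower (-1.45), and with Cdx2 and Gata5 it made 3 of 20 epithelial factors counted.

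Some genes of the absorptive lining were counted lower as well. Fabp2, the intestinal fatty acid carrier (chromosome 3, 122895072 to 122899506), had 10.5, 16.5, 7.83 and 5.18 FPKM against 69.4, 62.5, 40.9 and 412, with 738 and 445 in Control. The lower gene with the widest difference, 1810065E05Rik, had 19.1, 26.5, 10.5 and 7.26 FPKM against 169.7, 279, 228 and 692, a difference of -4.28. CUR replicate 0 was the highest AOM/DSS library for both. Prap1, a secreted proline-rich protein of the gut, had 0.450, 4.94, 0 and 0.455 FPKM against 18.3, 12.9, 44.0 and 21.2. Tmigd1, a membrane protein of enterocytes, had 1.17, 1.46, 0.508 and 0.450 FPKM against 11.2, 7.87, 9.30 and 29.2, with 42.4 and 25.4 in Control. The uncharacterised gene 0610040F04Rik had 0.437, 0.412, 0.2004 and 0.657 FPKM against 7.06, 8.66, 6.40 and 26.2. Sptssb, a subunit of the enzyme that starts sphingolipid synthesis, had 6.18, 12.1, 10.2 and 5.21 FPKM against 42.9, 48.6, 62.1 and 118. Tmigd1 and Slc51a, a bile acid exporter subunit (-1.14), were counted of 23 absorptive colonocyte genes, of which 18 had lower means (median -0.53). Fabp2 and Alpi, the intestinal alkaline phosphatase (-1.52), were counted of 9 small intestinal enterocyte genes, whose median was -0.03.

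**Figure D1:**
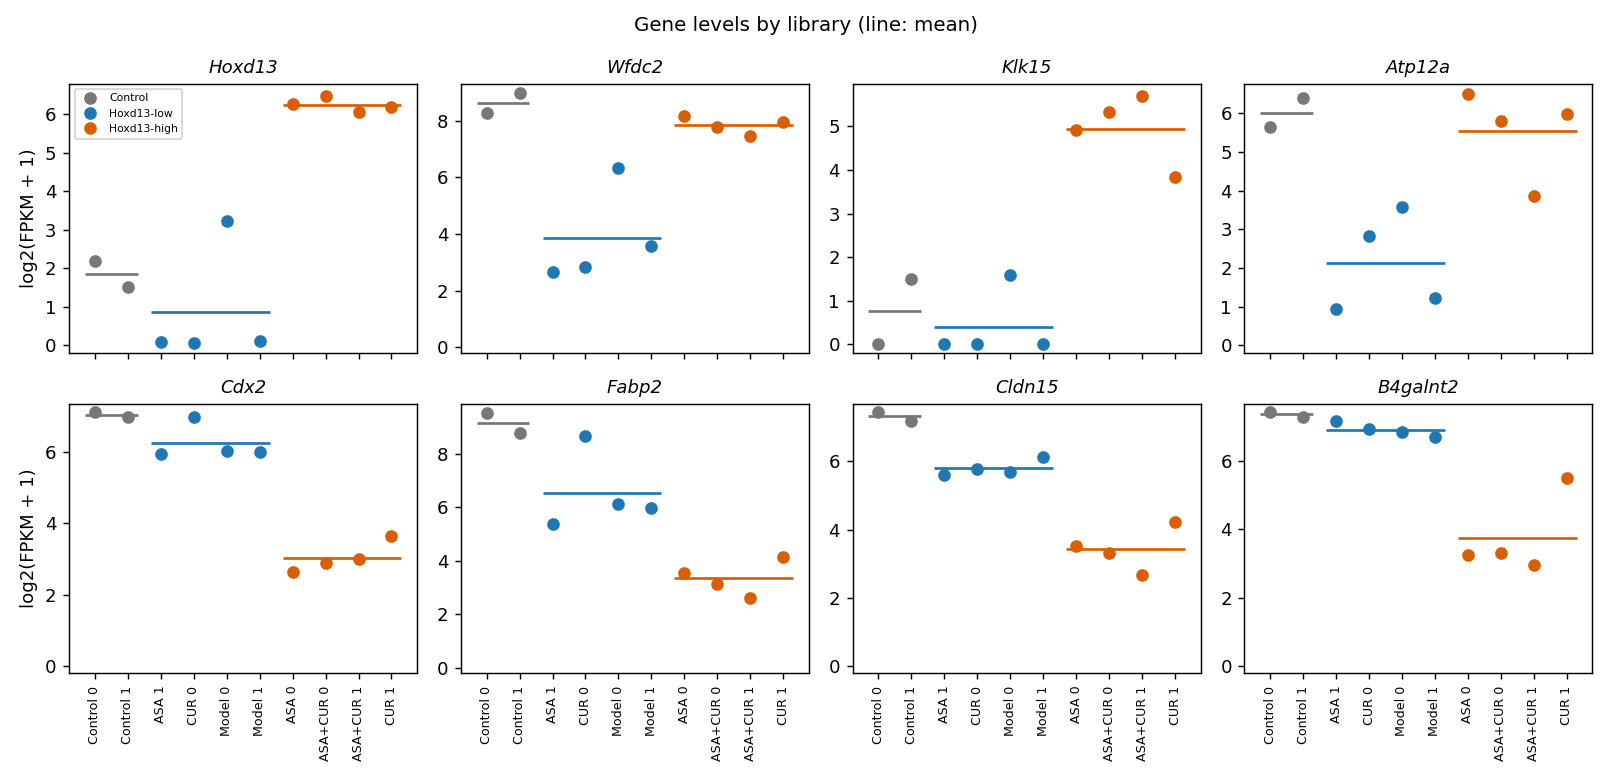
Levels of 8 genes as log2(FPKM + 1) on the vertical axis in each library on the horizontal axis, coloured by class, with a line at the mean of the class or of the Control libraries. In the upper row the Hoxd13-high libraries are above the Hoxd13-low libraries and in the lower row below them, and the Control libraries sit with the Hoxd13-high class for Wfdc2 and Atp12a and with the Hoxd13-low class for Klk15, Cdx2 and B4galnt2.

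Promoters of 3 of these genes are shown because Cdx2 and Fabp2 were among the largest lower and Wfdc2 among the largest higher differences. Each run is the 250 bases before the RefSeq start in GRCm38.p6, at chr5:147307250-147307499 on the minus strand for Cdx2, chr3:122894822-122895071 on the plus strand for Fabp2 and chr2:164562465-164562714 on the plus strand for Wfdc2.
Cdx2: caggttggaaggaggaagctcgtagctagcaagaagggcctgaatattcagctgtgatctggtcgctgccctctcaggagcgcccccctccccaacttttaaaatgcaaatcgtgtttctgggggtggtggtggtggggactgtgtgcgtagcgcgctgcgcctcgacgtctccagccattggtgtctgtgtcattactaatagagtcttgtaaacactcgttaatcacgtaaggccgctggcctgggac
Fabp2: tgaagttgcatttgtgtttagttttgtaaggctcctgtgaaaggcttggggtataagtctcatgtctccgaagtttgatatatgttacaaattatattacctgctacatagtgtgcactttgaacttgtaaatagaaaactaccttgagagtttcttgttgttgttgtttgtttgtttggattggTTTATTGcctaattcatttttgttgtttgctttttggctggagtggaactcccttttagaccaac
Wfdc2: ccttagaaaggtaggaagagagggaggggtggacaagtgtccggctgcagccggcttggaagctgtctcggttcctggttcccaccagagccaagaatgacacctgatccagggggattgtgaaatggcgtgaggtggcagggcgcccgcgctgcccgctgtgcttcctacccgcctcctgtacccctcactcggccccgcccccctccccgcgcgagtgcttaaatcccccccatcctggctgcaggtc
Capitals mark the reverse complement of CAATAAA, found at bases 186 to 192 of the Fabp2 run. The letters CAATAAA and TCGTAAA, found in sites that posterior HOX and CDX factors bind, were searched on both strands of 300-base windows that reach 50 bases past the start. At least 1 of them was in 5.15% of 32851 promoters, in 3.2% of 14026 promoters of genes tested, in 6 of 103 promoters of genes counted higher (5.83%) and in 10 of 147 of genes counted lower (6.8%). Of the 20 genes with the largest differences, 17 had promoters in the table, 20 in all, and 1 held the letters. A match is a description and not a site.

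Single genes of metabolism, glycan synthesis and cell junctions were counted lower. The 20 genes of fatty acid and ketone metabolism had a median of -0.19, and 14 had lower means. B4galnt2, which makes the Sd(a) glycan of the intestinal surface, had 8.52, 44.0, 8.99 and 6.83 FPKM against 113, 103, 142 and 122. CUR replicate 1 stood apart from the other Hoxd13-high libraries for B4galnt2 yet was below every Hoxd13-low library. Of 25 xenobiotic metabolism genes, 4 were counted lower and none higher (median -0.26): the carboxylesterases Ces1f (-1.30) and Ces2e (-1.45) and the cytochromes Cyp2c65 (-2.22) and Cyp2d26 (-1.65). Ces2e had 23.0, 27.7, 15.1 and 8.80 FPKM against 53.7, 44.7, 33.9 and 68.3, with 121 and 138 in Control. Cldn15, a claudin that forms cation pores between cells, had 10.4, 17.6, 8.90 and 5.34 FPKM against 50.8, 69.3, 47.5 and 53.9, and was the 1 counted of 9 claudins. Cyp2c65 has close relatives in a gene cluster, so its share of reads is uncertain.

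The secreted defence genes Ang4 and Itln1 were counted lower. Ang4, an antimicrobial ribonuclease of goblet and Paneth cells, had 119.8, 146, 138 and 155 FPKM against 462, 881, 650.0 and 748, with 6377 and 633 in Control. Itln1, an intelectin of the same cells, had 157, 111, 76.6 and 102 FPKM against 319, 474, 368 and 180.2, and 125 and 5.73 in Control. With Best2 these were the 3 counted of 16 goblet cell genes, of which 12 had lower means (median -0.47). Of 14 Paneth cell genes all had lower means in the Hoxd13-high class (median -1.62), but Itln1 alone was counted, and the classes overlapped in the summed level of the list, at 1935 to 3397 FPKM against 3232 to 8766. Within CUR the Hoxd13-high library was above the other by a median of 0.85, and within ASA it was below by a median difference of -2.73. Ang4 and the alpha-defensins have near-identical copies, and their split of reads is uncertain.

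Mast cell genes had the lowest median of the 39 lists. Of 11 tested, 7 were counted lower and none higher, 10 had lower means, and the median was -1.77 (-1.97 within ASA and -0.87 within CUR). Mcpt1, a mucosal mast cell chymase, had 6.45, 20.4, 6.55 and 6.45 FPKM in the Hoxd13-high libraries against 76.1, 30.6, 55.3 and 155 in the Hoxd13-low libraries, with 104 and 1.34 in Control. Mcpt2, its neighbour on chromosome 14, had 2.75, 13.6, 4.58 and 5.57 FPKM against 49.0, 33.7, 43.8 and 88.3, with 68.3 and 0.932 in Control. Tpsb2, a tryptase, had 5.30, 5.05, 4.45 and 3.16 FPKM against 14.2, 50.7, 42.2 and 11.6, with 0.892 and 0.590 in Control. The Control replicates thus lay far apart for both chymases and below all AOM/DSS libraries for the tryptase. Cpa3, the mast cell carboxypeptidase, had 2.89, 4.18, 4.21 and 1.68 FPKM against 9.28, 23.8, 20.4 and 8.46. Mcpt4 (-2.08), Fcer1a (-1.77), the alpha chain of the IgE receptor, and Tpsab1 (-1.15) were the others counted. Cma1, a chymase, overlapped with a difference of 0.36, as did the stem cell factor receptor Kit (-0.71), the IgE receptor chain Ms4a2 (-0.86) and Hdc, which makes histamine (-0.13). The summed level of the list was 38.9 to 87.2 FPKM in the Hoxd13-high and 189 to 295 in the Hoxd13-low libraries, and 208 and 29.2 in Control. The chymase genes and the tryptase genes are close copies of each other, so the split within each pair is uncertain. The part of mast cell content in other differences was not tested.

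Markers of stratified squamous epithelium, which lines the anal canal, did not follow the split. None of 21 tested was counted, 18 had higher means in the Hoxd13-high class, and the median was 0.88, with 1.28 within ASA and -0.66 within CUR. Krt5 was at 94.5, 0.0308, 212 and 0.0662 FPKM in the Hoxd13-high and at 10.3, 0.130, 0.0324 and 0.0739 in the Hoxd13-low libraries. Trp63, a defining factor of squamous basal cells, was at 2.42 and 5.64 FPKM in ASA replicate 0 and ASA+CUR replicate 0, at 0.401 in Model replicate 0, at or below 0.0867 in the other 5 AOM/DSS libraries, and listed at 0 in Control. The summed level of the list was 268 to 1442 FPKM in the Hoxd13-high and 290 to 793 in the Hoxd13-low libraries. Krt84, a hair-type keratin, had 27.5, 10.1, 13.9 and 7.60 FPKM against 3.05, 0.682, 0.872 and 1.03, so it was higher also in the 2 Hoxd13-high libraries without Krt5.

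**Figure D2:**
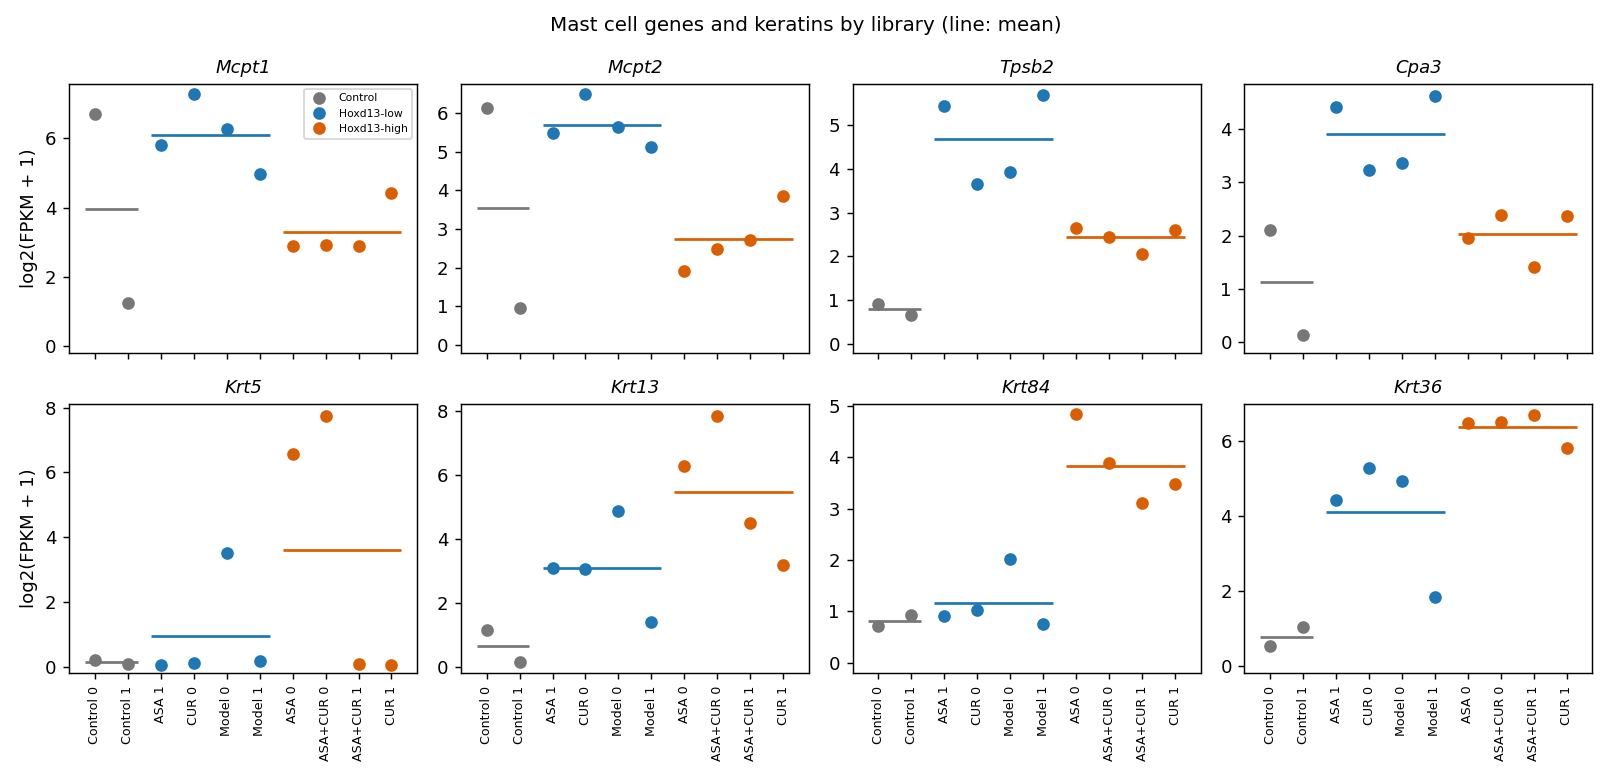
Levels as log2(FPKM + 1) on the vertical axis by library of 4 mast cell genes in the upper row and of 4 keratins in the lower row, coloured by class, with a line at each mean. The mast cell genes are lower in all 4 Hoxd13-high libraries, Krt5 is high in 3 libraries of both classes, and Krt84 and Krt36 separate the classes.

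Other cell types gave single genes. Over all genes tested, 0.875% were counted higher and 1.06% lower, and the median difference was -0.01. Nothing about a cell type is read from a single counted gene. Acta1, skeletal muscle actin, had 2.15, 1.83, 1.68 and 1.22 FPKM against 9.94, 27.7, 13.9 and 9.13, and was the 1 counted of 4 skeletal muscle genes. Lyz2, a lysozyme of macrophages, had 202, 295, 238 and 371 FPKM against 386, 1046, 809 and 429, and was the 1 counted of 17 macrophage genes (median -0.41). Single genes were also counted lower among T and NK cell genes (Cd3d at -1.07, 1 of 12, all 12 with lower means), fibroblast and matrix genes (Fbln1 at -1.22, 1 of 16), adipocyte genes (Fabp4 at -1.74, 1 of 8), enteric neuron and glia genes (Ret at -1.11, 1 of 16) and interferon response genes (Oas2 at -1.96, 1 of 22). The classes nearly met for Oas2, at 3.37 FPKM in CUR replicate 1 and 3.43 in Model replicate 0, and CUR replicate 0 was highest at 33.0. They nearly met also for Cd3d, at 1.89 FPKM in ASA replicate 0 and 2.02 in Model replicate 0. Of 15 epithelial defence genes Slpi was counted higher, of 21 mesenchymal factors Isl1, and of 2 mesothelial genes Msln. Their medians were -0.34, -0.04 and 0.51.

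Several lists held no gene that was counted. Smooth muscle genes had lower means in 18 of 19 (median -0.29), endothelial genes in 12 of 13 (-0.40) and oxidative phosphorylation genes in 22 of 26 (-0.16). Within ASA these medians were -0.26, -0.395 and 0.21, and within CUR 0.56, -0.23 and -0.43. The mean smooth muscle level on log2(FPKM + 1) was 4.942 and 5.328 in the Model libraries. It was 4.292 in ASA replicate 1, 4.0 in CUR replicate 0 and 4.083 to 4.622 in the Hoxd13-high libraries. Cell cycle genes had higher means in 21 of 25 (median 0.185), stem cell and Wnt target genes in 15 of 22 (0.20), and cytokine and chemokine genes in 15 of 21 (0.34). The medians of these lists were 0.46, -0.27 and 0.59 within ASA, and -0.07, 0.33 and 0.10 within CUR. Tuft cell genes (7 tested) had a median of -0.22, neutrophil genes (7) of -0.25, class II antigen presentation genes (9) of -0.29, B and plasma cell genes (12) of 0.12, and prostaglandin pathway genes (18) of -0.02. Ribosomal protein genes, as above, had none counted.

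**Figure D3:**
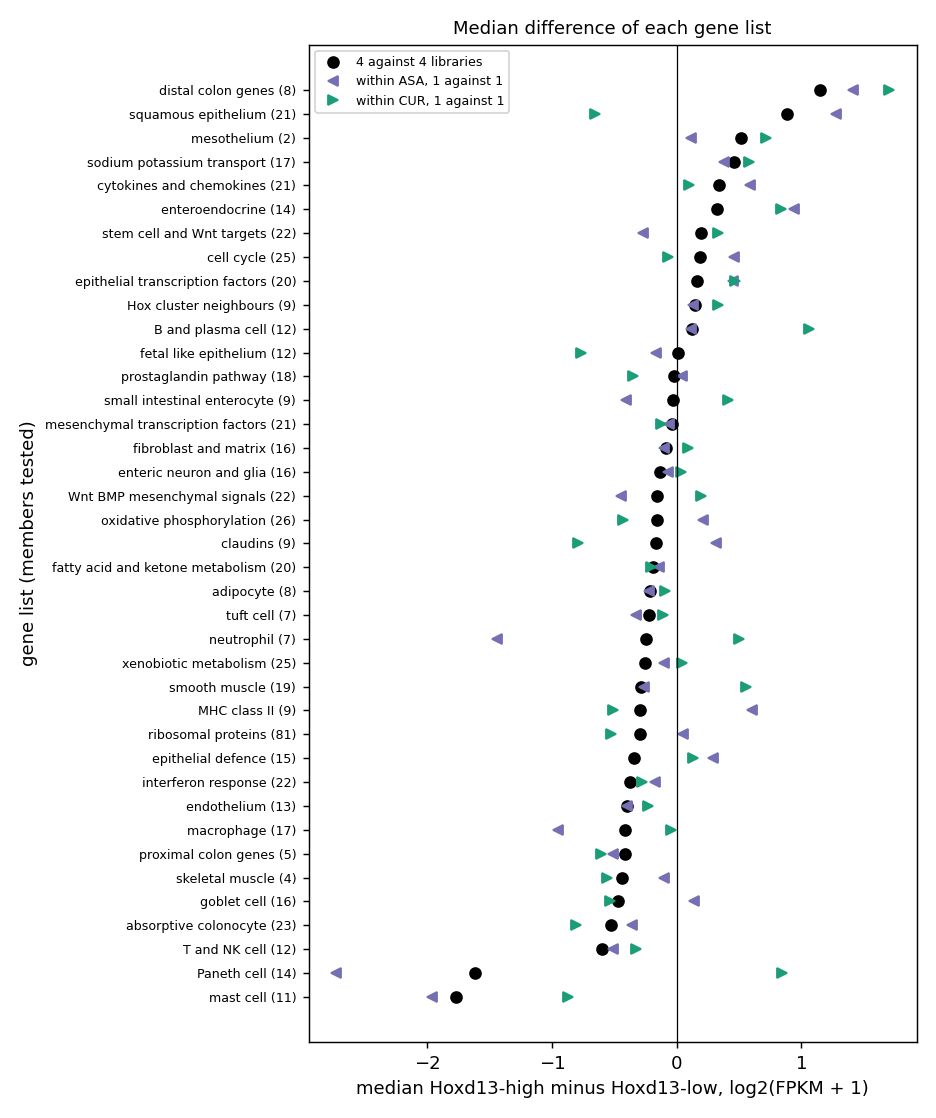
Median difference of each of 39 gene lists on the horizontal axis, as Hoxd13-high minus Hoxd13-low on log2(FPKM + 1), for the 4 against 4 libraries and for the single libraries within ASA and within CUR; the number of members tested stands after each name. Distal colon genes are at the top and mast cell genes at the bottom with the same sign in all 3, while Paneth cell, squamous and neutrophil genes have opposite signs in the ASA and CUR pairs.

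ASA and CUR hold 1 library of each class, so these pairs hold the diet constant, though each compares single libraries with no replicate. By at least 1 on log2(FPKM + 1), 146 genes (1.04%) were higher and 118 (0.839%) lower in the Hoxd13-high library of both diets. Of the 123 and 149 genes counted above, 72 and 78 were among these, and the no-overlap rule had already fixed their direction in both pairs. Wfdc2 differed by 5.51 in ASA and 5.09 in CUR, Klk15 by 4.92 and 3.85, and Sptssb by -3.13 and -3.18. Klk15 was listed at 0 in the Hoxd13-low library of both diets, so the sizes of its differences depend on the pseudocount. Fabp2 also passed 1 in both, with -1.86 and -4.56. Gata5 differed by 2.22 in ASA and 0.07 in CUR, and Msln by 0.63 and 2.25, so each passed 1 in a single diet, and the difference between the diets was not tested. The medians over all genes were -0.003 in ASA and -0.002 in CUR.

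**Figure D4:**
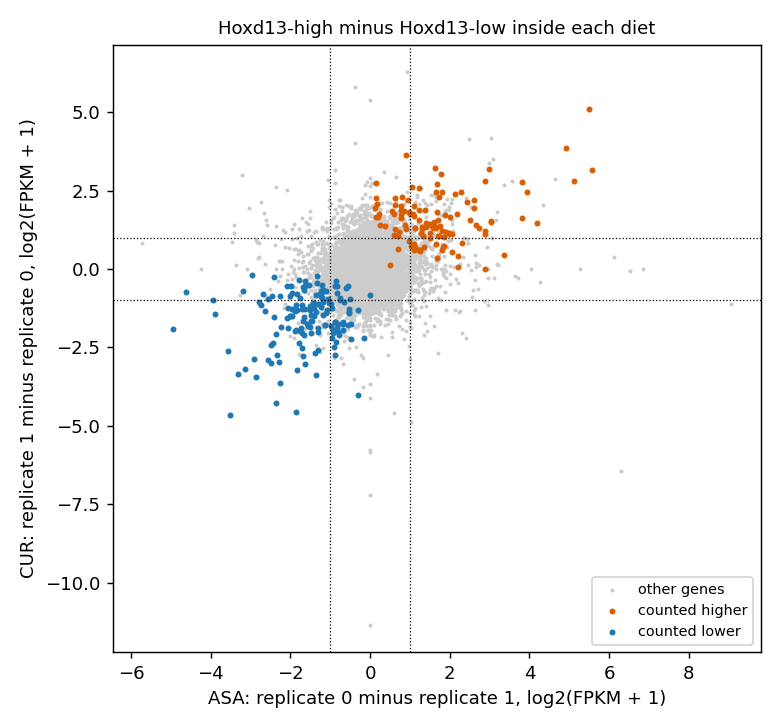
Difference of each gene on log2(FPKM + 1) within ASA (horizontal axis, replicate 0 minus replicate 1) and within CUR (vertical axis, replicate 1 minus replicate 0), with dotted lines at 1 and -1. Orange and blue points are the 118 higher and 148 lower genes, which lie on 1 side of 0 in both diets by the rule that counts them.

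The position of single libraries inside the classes varied. Model replicate 0, which had the highest Hoxd13 of its class, was the highest Hoxd13-low library in 61 of the 118 higher genes and the lowest in 51 of the 148 lower genes. CUR replicate 1 was the highest Hoxd13-high library in 75 of the 148 lower genes and the lowest in 41 of the 118 higher genes. Mcpt1, Mcpt2, B4galnt2 and Cdx2 were lower genes with their highest Hoxd13-high value in CUR replicate 1.

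The Control libraries lay more often on the Hoxd13-low side, but not for all counted genes. Among the 118 higher genes, the Control mean was nearer the Hoxd13-low mean for 80 and nearer the Hoxd13-high mean for 38. Both Control libraries lay within or beyond the range of the Hoxd13-low class for 68 of them, within or beyond that of the Hoxd13-high class for 27, and neither for 23. Among the 148 lower genes, the Control mean was nearer the Hoxd13-low mean for 92 and nearer the Hoxd13-high mean for 56, with both Control libraries on the Hoxd13-low side for 75, on the Hoxd13-high side for 34 and neither for 39. Wfdc2 and Atp12a were among the genes with Control at or past Hoxd13-high levels, and Cdx2 and Fabp2 among those with Control at or past Hoxd13-low levels.

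**Figure D5:**
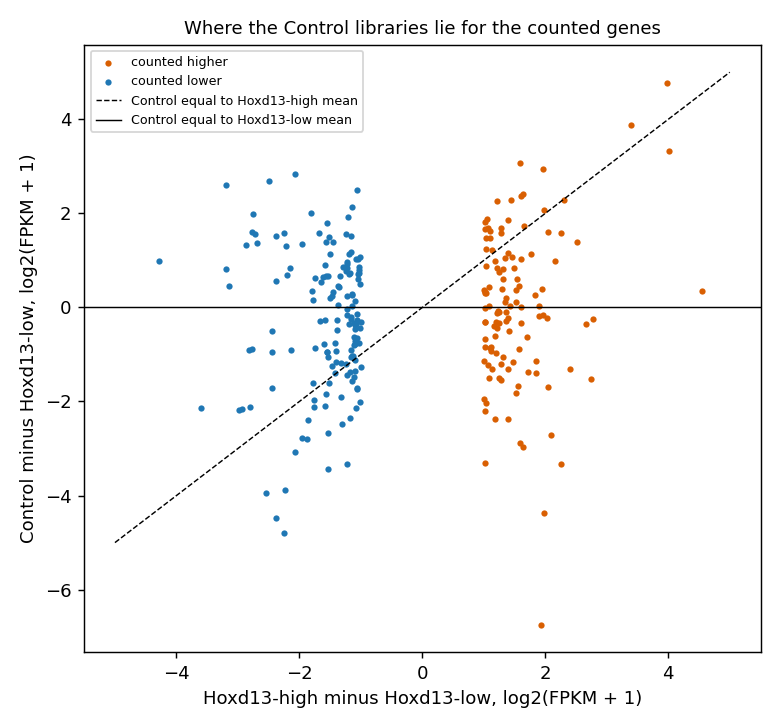
Control mean minus Hoxd13-low mean (vertical axis) against Hoxd13-high mean minus Hoxd13-low mean (horizontal axis), both on log2(FPKM + 1), for the 118 higher and 148 lower genes; the solid line is Control equal to Hoxd13-low and the dashed line Control equal to Hoxd13-high. Points scatter around both lines in each set.

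Groups defined by the labels allow a test. With limma across all genes (Benjamini-Hochberg adjustment, two-sided, threshold 0.05), 2276 genes (16.2%) passed in Model against Control, which sets a Hoxd13-low group against Control, and 4148 (29.5%) in ASA+CUR against Control, which sets a Hoxd13-high group against it. Both comparisons share the Control libraries. Of the 118 higher genes, 12 rose and 3 fell in Model (median log2 change 0.15) and 48 rose and none fell in ASA+CUR (median 1.58). Of the 148 lower genes, 11 rose and 4 fell in Model (0.12), and 1 rose and 60 fell in ASA+CUR (-1.40). The Model and ASA+CUR libraries both helped to choose these genes, so all of these counts are descriptions and support no direction. Leaving out Control replicate 0, Control replicate 1, ASA+CUR replicate 0 or ASA+CUR replicate 1 gave 20, 24, 26 or 22 higher genes that rose and 19, 22, 31 or 16 lower genes that fell. In Model, leaving out Control replicate 0, Control replicate 1, Model replicate 0 or Model replicate 1 gave 3, 4, 4 or 5 higher genes that rose and 1, 0, 8 or 1 lower genes that rose. All genes past the threshold in Model were then 623, 553 and 1078 without Control replicate 0, Control replicate 1 and Model replicate 1, and those in ASA+CUR 1702, 1736, 2312 and 1481 without Control replicate 0, Control replicate 1, ASA+CUR replicate 0 and ASA+CUR replicate 1.

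Named genes gave the following against Control with limma. Those here and in the next paragraph were counted between classes that hold the Model and ASA+CUR libraries. A pass in 1 of these groups beside a miss in the other is thus partly built in. Leaving out a library does not change that, and no support for a class difference is read from these values. Cdx2 had a log2 change of -1.04 ± 1.19 (SE) in Model (adjusted p = 0.602) and fell by 4.10 ± 1.19 in ASA+CUR (adjusted p = 0.0349), a call that was lost without any 1 of the 4 libraries (adjusted p up to 0.143). Cldn15 had a change of -1.41 ± 0.69 in Model (adjusted p = 0.211) and fell by 4.33 ± 0.69 in ASA+CUR (adjusted p = 0.00364). Ces2e had -1.38 ± 0.41 in Model (adjusted p = 0.0592) and fell by 3.37 ± 0.41 in ASA+CUR (adjusted p = 0.00125). Serpinb11, listed at 0 in Control, rose by 4.05 ± 0.72 in ASA+CUR (adjusted p = 0.00549). The calls of Cldn15, Ces2e and Serpinb11 in ASA+CUR held without each of the 4 libraries (limma adjusted p up to 0.0389).

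Wfdc2 and Atp12a passed in neither group and Tpsb2 in Model alone. Wfdc2 had a log2 change of -3.69 ± 2.02 in Model and -1.01 ± 2.02 in ASA+CUR, and Atp12a -3.61 ± 1.79 and -1.17 ± 1.79, none past the limma threshold (adjusted p = 0.254 and 0.726 for Wfdc2, 0.212 and 0.645 for Atp12a). Tpsb2 rose by 4.01 ± 0.89 in Model (adjusted p = 0.0218) and had 1.46 ± 0.89 in ASA+CUR (adjusted p = 0.245). Its call in Model was kept in 1 of the 4 fits that left out a library (adjusted p up to 0.127).

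Set against Model directly, ASA+CUR gave 2 features past the limma threshold (0.0142%), and neither was counted between the classes. They were Hba-a2, an alpha-globin gene with a near-identical copy, which rose by 3.75, and NM_010039, a transcript without a gene name in the tables used here, which fell by 3.44 (adjusted p = 0.0258 for both). Without Model replicate 0, Model replicate 1 or ASA+CUR replicate 1 a single feature passed, and without ASA+CUR replicate 0 none. Of the 118 higher and 148 lower genes none passed, while 55 and 73 had an unadjusted p under 0.05, beside 1416 of all 14061 genes. Since the genes were chosen for separation of classes that hold these 4 libraries, small unadjusted p-values are built in and nothing is read from them. Cdx2 had a log2 difference of -3.07 ± 1.19 (limma adjusted p = 0.477). Cldn15 had -2.93 ± 0.69, Ces2e -1.99 ± 0.41, Serpinb11 2.83 ± 0.72 and Tpsb2 -2.56 ± 0.89. Their limma adjusted p-values were 0.332, 0.305, 0.355 and 0.458.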

How the data were processed

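RNA from 10 mouse colon pieces was sequenced after TruSeq library preparation, per the labels' protocols. Tools listed in the submitters' notes are TopHat2 2.0.9 with Bowtie2 2.1.0.0, Cuffdiff, and bcl2fastq 2.17.1.14, with the mm10 (GRCm38) genome. The authors deposited FPKM per transcript and library. Strand use, multi-mapping and filters are not given in the sources used here. Per-transcript values (30073 rows) were summed into 23473 gene rows with RefSeq names, and 451 transcripts kept their accession. FPKM holds no depth.

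Differences are on log2(FPKM + 1), which understates changes of low genes. A gene entered the fits if it reached 1 FPKM in 2 libraries or more (14061 genes). Label-defined groups were compared with limma 3.58.1 (R 4.3.3, intensity trend, all 10 libraries in 1 fit, residual df 5), two-sided, with Benjamini-Hochberg adjustment over all genes tested. Scripts (Python 3.11.15, pandas 2.3.3, numpy 2.4.6) were tested on simulated data. The named genes were the 10 highest and 10 lowest differences among counted genes that are not Hox genes, up to 3 counted members of each of 39 lists, Cdx1, Cdx2, and the distal and proximal colon lists. Members and lists were chosen with earlier results of these data known. Alternatives were another pseudocount, filters, scalings, transcript summary, fold threshold, variance model, covariates and leaving out each library. Some genes that this rule names are not reported here.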

Additional observations from a re-analysis of the deposited data

Results flagged for a closer look

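Of 194 checks for a library far from the other 3 of its class, 10 found one, and chance finds about 1 in 20 groups. CUR replicate 1 stood apart from the other Hoxd13-high libraries with low Gata5 (5.657 FPKM) and with high Fabp4 (24.361 FPKM), Mcpt1 (20.414 FPKM) and B4galnt2 (44.045 FPKM). Its mean level over mesenchymal transcription factors was low, at 2.103 on log2(FPKM + 1). CUR replicate 0 stood apart from the other Hoxd13-low libraries with high Cyp2c65 (41.618 FPKM) and high Cdx2 (125.53 FPKM). Klk15 was high in Model replicate 0, at 1.989 FPKM among Hoxd13-low libraries. The mean level of claudins was low in ASA+CUR replicate 1, at 5.343, and that of B and plasma cell genes high in Model replicate 1, at 3.237, both on log2(FPKM + 1).

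In 4 lists the median difference between the Hoxd13-high and the Hoxd13-low library was past 0.5 in opposite directions in ASA and CUR. It was -2.728 in ASA and 0.847 in CUR for Paneth cell genes, 1.281 and -0.656 for squamous genes, -1.440 and 0.502 for neutrophil genes, and 0.604 and -0.510 for class II antigen presentation genes. Each rests on 1 library against 1, and the difference between the diets was not tested.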

How the results depend on the processing

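With a pseudocount of 0.1, the genes counted between the classes were 199 higher and 236 lower, and those within both diets 271 and 219. A difference of at least 1.5 left 52 and 67. With the 3 libraries above 10 FPKM of Krt5 left out, 195 and 270 were counted, and fewer libraries make separation easier by construction. Leaving out each library gave 111 to 176 higher and 143 to 244 lower, the last without CUR replicate 1. Other filters, scalings and the largest transcript kept these counts within 1.5 times. The counts within both diets have no value without a library, since a pair would be lost. Leaving out each library gave 553 to 1636 genes for Model against Control, 1481 to 2312 for ASA+CUR against Control and 0 to 1 for ASA+CUR against Model.

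With only the 2 groups in the fit, ASA+CUR against Control gave 6758 and ASA+CUR against Model 4. ASA+CUR against Model gave 0 with the stricter filter (1112 at an unadjusted limma p under 0.05) and 0 with Hoxd13 class as a term (614). The cause was not tested. Deviations of same-numbered libraries from their group means had correlations of -0.214 to 0.326 across genes, 3 of 10 over 0.1. With 2 libraries per group, these values cannot settle whether such libraries share more than a number. With the replicate number as a block, Model against Control gave 2062, ASA+CUR against Control 3956 and ASA+CUR against Model 0 (1338 at an unadjusted limma p under 0.05).

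Of 868 alternatives over 58 named genes, 846 stayed within the replicate spread, 15 moved, all with the smaller pseudocount, and 7 turned sign in 3 genes with differences near 0. Without each library in turn, Aqp4 reached down to -0.5145, Cdx1 up to 0.2267 and Prdx6 down to -0.4441. Aqp4 was at 0.2213 without Model replicate 0 and 0.0514 without ASA+CUR replicate 1. Cdx1 was at -0.0896, -0.1687 and -0.0324 without ASA replicate 0, ASA replicate 1 and CUR replicate 1, and at -0.0428 without the Krt5 libraries. Prdx6 was at 0.0062 without ASA+CUR replicate 1.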

Other observations

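The genes below were chosen after their values were seen, among those counted between the classes, and carry no test of the classes. Some hair-type keratins and genes of cornification were among the higher genes, picked singly and not counted as a set. Of the 21 squamous epithelium genes tested none was counted, and their median was 1.28 within ASA and -0.66 within CUR. Krt36 had 86.9, 54.6, 89.1 and 101 FPKM in the Hoxd13-high libraries against 29.1, 2.55, 20.2 and 37.5 in the Hoxd13-low libraries, and 0.437 and 1.04 in Control. Alox12, a lipoxygenase of platelets and skin, had 41.7, 25.0, 48.2 and 45.4 FPKM against 11.3, 8.63, 5.81 and 8.72. Both separated the classes, with Control below all AOM/DSS libraries. Casp14, a caspase of cornifying cells, differed by 2.26, Dapl1 by 2.04, the hair keratin Krt35 by 1.95, Krt90 by 1.31, Gsdma, a gasdermin of skin and gut, by 1.24, and Scel, a precursor of the cornified envelope, by 1.23.

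Some enzymes that build surface glycans were counted in either direction. B4galnt3 was higher by 2.30, B3gnt5, which starts lacto-series glycolipids, by 1.60 and the fucosyltransferase Fut9 by 1.49. B3gnt6, which makes the core 3 mucin glycan, had 0.330, 0.480, 0.220 and 0.365 FPKM in the Hoxd13-high libraries against 4.87, 13.3, 6.88 and 9.95, with 21.2 and 34.2 in Control. It was below 1 FPKM in every Hoxd13-high library. B4galnt2 differed by -3.15, Mgat4c by -1.62, Gcnt3, which branches mucin glycans, by -1.38, B4galnt1, a ganglioside enzyme, by -1.34, and A4gnt by -1.20.

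Among single genes of the epithelial surface, Mep1b, a meprin subunit, had a difference of -2.20, Slc3a1, an amino acid carrier subunit, of -2.16, Dpep1, a dipeptidase, of -2.07 and Car12, a carbonic anhydrase, of -2.44. Trpv6, an epithelial calcium channel, had 5.14, 5.30, 3.30 and 3.37 FPKM against 0.328, 0.356, 0.261 and 0.162. Ccnd2, a cyclin of the G1 phase, had 132, 115, 136 and 122 FPKM against 56.1, 48.4, 40.8 and 46.1. The classes of both genes lay well apart.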
